A study of Mus musculus with 20 samples.

Results

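The 7 genes described here, in mouse B220+ cells, are the sestrins Sesn1, Sesn2 and Sesn3 and the receptor HVEM (Tnfrsf14) with its partners Btla, Cd160 and Tnfsf14. They were chosen by name, with earlier results of these data known, and matched by Ensembl identifier to the deposited count table. All 7 of the 7 names were found among the 37620 genes of the table, and all 7 were among the 17824 genes that passed the filter on low counts and were tested. The samples were B220-enriched cells from VavPBcl2 lymphomas that carried Myc (VavPBcl2/Myc, n = 8), from VavPBcl2 lymphomas that carried an empty vector (VavPBcl2/vector, n = 8) and from normal spleen (n = 4), all of the C57BL/6 background. VavPBcl2 denotes a Bcl2 transgene under the Vav promoter, which is active in blood cells of many lineages, and both lymphoma groups share it while normal spleen is not labelled with it. Age is not given, nor is it stated whether each sample is a different mouse, so every p-value rests on sample-to-sample spread that may be technical.

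Sestrins are stress-induced proteins that restrain mTORC1, the kinase complex that drives cell growth when amino acids are plentiful. They bind the GATOR2 complex, and Sesn2 does so in a manner that leucine reverses. p53 induces Sesn1 and Sesn2, Atf4 induces Sesn2, and FoxO factors induce Sesn1 and Sesn3. HVEM is a receptor of the TNF family on lymphocytes. It binds the inhibitory receptor BTLA, the receptor CD160 of cytotoxic lymphocytes, and the TNF-family ligand LIGHT (Tnfsf14). In human follicular lymphoma, loss of TNFRSF14 and deletions that take SESN1 are recurrent.

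The promoter windows of Sesn3 and Btla are printed because these were the members that fell in Myc lymphomas. A window of Sesn1, the paralogue of Sesn3, is printed because it held the FoxO letters that Sesn3 lacked. The windows are RefSeq's (GRCm38.p6), reach from 250 bases before to 50 bases after the annotated start, and are written 5′ to 3′ on the gene's strand, with motif letters in capitals. The build named for the counts differs, so these coordinates belong to the sequences only. The Sesn3 window is chr9:14276051-14276350 on the plus strand, the Btla window chr16:45224087-45224386 on the plus strand, and the printed Sesn1 window chr10:41810324-41810623 on the plus strand. Another Sesn1 window, chr10:41887189-41887488 on the plus strand, is not printed and held no motif letters.
Sesn3: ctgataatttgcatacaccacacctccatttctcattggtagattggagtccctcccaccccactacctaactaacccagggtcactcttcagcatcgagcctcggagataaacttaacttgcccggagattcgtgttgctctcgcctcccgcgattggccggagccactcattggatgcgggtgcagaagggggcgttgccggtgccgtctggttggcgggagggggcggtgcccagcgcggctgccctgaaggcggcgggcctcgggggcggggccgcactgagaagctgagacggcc
Btla: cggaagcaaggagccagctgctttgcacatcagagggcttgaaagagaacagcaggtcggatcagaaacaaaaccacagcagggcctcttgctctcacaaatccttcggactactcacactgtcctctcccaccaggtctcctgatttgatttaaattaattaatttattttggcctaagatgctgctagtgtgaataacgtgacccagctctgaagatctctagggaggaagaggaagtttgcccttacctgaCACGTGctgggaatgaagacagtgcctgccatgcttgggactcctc
Sesn1: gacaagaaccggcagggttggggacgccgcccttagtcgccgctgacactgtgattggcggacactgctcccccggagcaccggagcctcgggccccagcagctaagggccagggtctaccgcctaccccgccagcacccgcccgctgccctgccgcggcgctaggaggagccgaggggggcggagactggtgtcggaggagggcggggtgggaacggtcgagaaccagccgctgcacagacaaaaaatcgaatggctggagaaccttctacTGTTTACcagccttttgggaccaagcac
Both strands of the members' 9 windows were searched for 3 motifs, and no match overlapped another. CACGTG, the E-box that Myc and its relatives bind, was found once, in Btla, from base 5 after the start, and 7.15% of 32851 mouse promoter windows held it. TGTTTAC, a FoxO motif, was found once, in Sesn1, from base 23 after the start, and 3.65% of windows held it. TGATGNAAN, the response element that Atf4 binds, was in no window of a member and in 3.95% of windows. A match describes the letters only.

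Libraries held 28.7 to 56.3 M counts in genes (M for 1e6; 33.5 to 45.7 M in Myc lymphomas, 28.7 to 56.3 M in vector lymphomas and 43.0 to 52.9 M in normal spleen). The Myc transcript was checked first and averaged 979 ± 409 CPM in Myc lymphomas (SD, n = 8), 118 ± 65.6 CPM in vector lymphomas (SD, n = 8) and 242 ± 70.8 CPM in normal spleen (SD, n = 4), where CPM are counts scaled to a library of 1e6. In Myc lymphomas it exceeded vector lymphomas 8.29-fold (edgeR adjusted p = 1.2e-06). Bcl2 was not called in any comparison, at 120 ± 43.2 CPM in Myc lymphomas (SD, n = 8), 122 ± 20.1 CPM in vector lymphomas (SD, n = 8) and 126 ± 9.19 CPM in normal spleen (SD, n = 4), and whether the transgene's reads fall in this count is not known here. Myc replicate 5 stood apart: its median Spearman correlation across genes with the other Myc lymphomas was 0.878, while that of the other 7 was 0.956 to 0.966. The Myc transcript in Myc replicate 5 stood at 313 CPM, the lowest of the Myc lymphomas and below normal replicate 4 at 343 CPM. Run numbers are counted separately on each of several sequencing instruments. Split at a gap on each instrument, they put all 8 Myc lymphomas, vector replicates 7 and 8 and normal replicates 2 to 4 in earlier sequencing runs. The other 7 samples fall in later ones. This split was inferred from the numbers and is not a batch that the labels name. Run and group therefore overlap, and results are also given within the earlier runs. Vector replicates 7 and 8 also carry another title prefix than the other 6, so among vector lymphomas the run and this series of samples cannot be told apart. B cell markers were present throughout, and their summed levels are given beside Btla. Neutrophil marker RNA was higher in Myc lymphomas: 10 such genes summed to 1660 to 16600 CPM there, 57.0 to 5900 CPM in vector lymphomas and 87.5 to 917 CPM in normal spleen, and the part of such cells in the results was not tested.

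Of the members, 3 changed between Myc and vector lymphomas: Sesn3 and Btla fell and Cd160 rose, while Sesn1, Sesn2, Tnfrsf14 and Tnfsf14 did not pass the test (edgeR's quasi-likelihood test, adjusted p under 0.05, adjusted over all genes tested). Of all genes, 26.6% rose and 21.9% fell in that comparison, so a count of 1 up and 2 down among 7 lies near the background. In the earlier runs alone 2.97% of genes rose and 4.4% fell, and with the run as a term 19% were called in either direction. Between Myc lymphomas and normal spleen, Sesn2 and Cd160 rose and Sesn3 and Btla fell, against 21.5% of all genes up and 17.9% down. Between vector lymphomas and normal spleen only Cd160 was called, as lower, against 7.46% of genes up and 3.36% down. The members' median log2 fold change was 0.08 for Myc over vector lymphomas (0.08 over all genes), -0.07 for Myc lymphomas over normal spleen (0.08) and -0.34 for vector lymphomas over normal spleen (-0.03). Within the earlier runs, which leave 2 vector lymphomas and 3 normal spleens, 0.621% rose and 0.0432% fell. The 3 comparisons share samples, since each group serves in more than 1 of them.

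**Figure D1:**
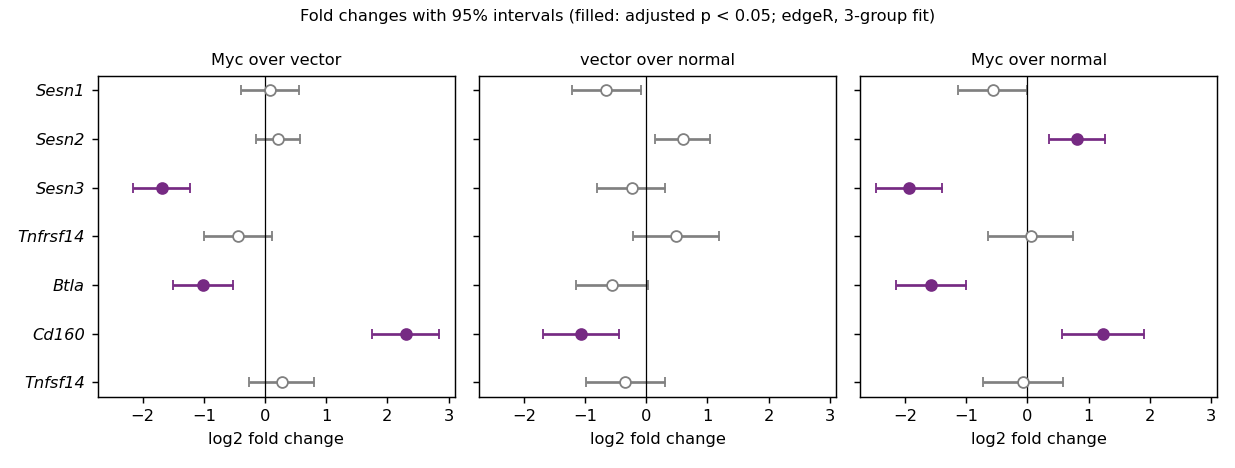
Log2 fold changes (x axis) of the 7 members (y axis) in the 3 comparisons, with 95% intervals as bars and filled points for adjusted p under 0.05. Sesn3 and Btla lie left of 0 in both comparisons of Myc lymphomas, Cd160 lies right of 0 in both, and Sesn1 and Sesn2 lie on opposite sides of 0 wherever normal spleen is the baseline.

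Sesn3 was the sestrin that differed most. In Myc lymphomas it ran from 9.42 to 37.2 CPM with a median of 21.3 CPM, in vector lymphomas from 38.1 to 86.5 CPM with a median of 75.3 CPM, and in the normal spleens it stood at 113, 68.5, 78.5 and 73.0 CPM. Every Myc lymphoma lay below every sample of the other groups, whereas vector lymphomas and normal spleen overlapped. Such separation of Myc from vector lymphomas was seen in 6.38% of all genes with Myc lymphomas lower and 5.12% with them higher, and of Myc lymphomas from normal spleen in 14.3% lower and 13.1% higher. Sesn3 fell by 1.69 ± 0.24 (SE) on the log2 scale in Myc against vector lymphomas, which is 3.22-fold lower (edgeR adjusted p = 1.3e-05). It fell by 1.93 ± 0.27 in Myc lymphomas against normal spleen, which is 3.82-fold lower (edgeR adjusted p = 2.8e-05).

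The Sesn3 difference between the lymphomas was smaller within the earlier runs. Vector replicates 7 and 8, the earlier ones, held 38.1 and 53.8 CPM, while the 6 vector lymphomas of later runs held 66.4 to 86.5 CPM. For these the log2 fold change of Myc over vector lymphomas was -1.07 ± 0.37 (edgeR adjusted p = 0.093, n = 8 and 2), so the call ended there although the values still did not overlap. With the run as a term it was -1.11 ± 0.28 (edgeR adjusted p = 0.0094). Against normal spleen the call held within the earlier runs, at -1.72 ± 0.31 (edgeR adjusted p = 0.0027).

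Sesn2 was higher in both kinds of lymphoma than in normal spleen. Myc lymphomas ran from 17.3 to 42.7 CPM with a median of 30.5 CPM, vector lymphomas from 19.6 to 35.9 CPM with a median of 25.6 CPM, and the normal spleens held 16.8, 17.9, 16.5 and 18.6 CPM. All 8 vector lymphomas and 7 of 8 Myc lymphomas exceeded every normal sample; the exception was Myc replicate 5. Sesn2 rose 1.75-fold in Myc lymphomas against normal spleen (log2 fold change 0.81 ± 0.23, edgeR adjusted p = 0.0086). That call ended within the earlier runs (0.83 ± 0.29, edgeR adjusted p = 0.058) and without scaling beyond library totals (0.65 ± 0.26, edgeR adjusted p = 0.054), with sizes close to 0.81.

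For vector lymphomas against normal spleen, the Sesn2 value was 0.60 ± 0.23 on the log2 scale (edgeR adjusted p = 0.098), not a call in the fit of 3 groups. With only these groups in the fit it was 0.61 ± 0.19 and passed (edgeR adjusted p = 0.039). The exact two-sided permutation test gave an unadjusted p of 0.014. DESeq2 called it too, at 0.63 ± 0.23 (DESeq2 adjusted p = 0.046). The earlier runs (0.68 ± 0.37, edgeR adjusted p = 0.65) and the run as a term (0.64 ± 0.26, edgeR adjusted p = 0.15) gave no call. The fit of 2 groups called 20.7% of all genes and DESeq2 15.4%, and these groups failed to overlap in 13.2% of genes (7.33% with vector lymphomas higher and 5.91% with them lower). Between Myc and vector lymphomas Sesn2 overlapped, with a 95% interval of the log2 fold change from -0.14 to 0.57.

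Sesn1 was not called in any comparison of the fit of 3 groups. It ran from 42.3 to 168 CPM in Myc lymphomas with a median of 92.3 CPM, from 77.5 to 119 CPM in vector lymphomas with a median of 81.6 CPM, and stood at 150, 121, 146 and 119 CPM in normal spleen. All 8 vector lymphomas lay below all 4 normal samples, although vector replicate 5 and normal replicate 4 both stood at 119 CPM once rounded. Such separation, with vector lymphomas lower, was seen in 5.91% of all genes. The log2 fold change of Sesn1 in vector lymphomas over normal spleen was -0.65 ± 0.29 (edgeR adjusted p = 0.16) in the fit of 3 groups, and -0.64 ± 0.13 (edgeR adjusted p = 0.0034) in the fit of these groups alone. The exact two-sided permutation test gave an unadjusted p of 0.002. No call came from DESeq2 (-0.62 ± 0.31, DESeq2 adjusted p = 0.17), the run as a term (-0.69 ± 0.33, edgeR adjusted p = 0.23) or the earlier runs (-0.60 ± 0.53, edgeR adjusted p = 0.89).

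The Myc lymphomas split widely in Sesn1. Replicates 4, 5 and 7 held 42.4, 47.9 and 42.3 CPM, below every vector lymphoma, and replicate 6 held 168 CPM, above every other sample of the study. The coefficient of variation was 49.8% in Myc lymphomas, 15.9% in vector lymphomas and 12.1% in normal spleen. Between Myc and vector lymphomas Sesn1 was not called, with a log2 fold change of 0.08 ± 0.24 (edgeR adjusted p = 0.79, 95% interval -0.39 to 0.55), which became -0.15 without Myc replicate 6. Against normal spleen Myc lymphomas stood at -0.57 ± 0.29 (edgeR adjusted p = 0.12), a value that passed (edgeR adjusted p = 0.024) without Myc replicate 6.

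**Figure D2:**
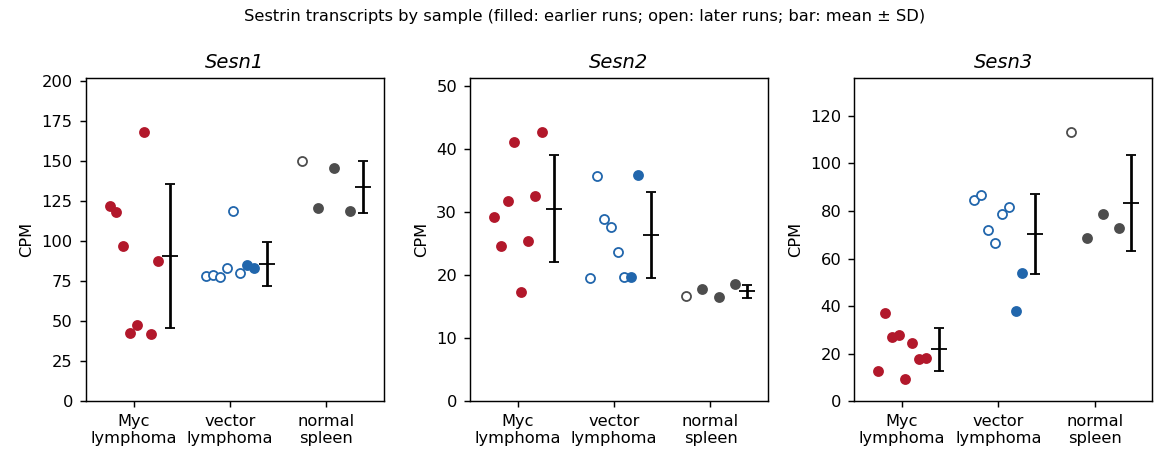
Sestrin transcripts in CPM (y axes) for each sample of Myc lymphomas, vector lymphomas and normal spleen (x axes), with filled points for earlier and open points for later sequencing runs and bars for mean ± SD. Sesn3 separates Myc lymphomas from all other samples, Sesn1 spreads from 42.3 to 168 CPM among Myc lymphomas, and Sesn2 is lowest and tightest in normal spleen.

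Ratios within a sample do not depend on the scaling between libraries. The log2 ratio of Sesn1 to Sesn3 counts was 2.00 ± 0.85 in Myc lymphomas (SD, n = 8), 0.32 ± 0.45 in vector lymphomas (SD, n = 8) and 0.71 ± 0.21 in normal spleen (SD, n = 4). Myc replicate 4, at 0.60, fell among the other groups, and the other 7 Myc lymphomas lay above all of them. Among vector lymphomas this ratio differed by run, at 1.16 and 0.63 in replicates 7 and 8, the earlier ones, and at -0.14 to 0.59 in the 6 later ones. The log2 ratio of Sesn2 to Sesn1 was -1.45 ± 0.93 in Myc lymphomas (SD, n = 8), -1.73 ± 0.44 in vector lymphomas (SD, n = 8) and -2.94 ± 0.25 in normal spleen (SD, n = 4). Every lymphoma except Myc replicate 6, at -2.72, lay above every normal sample in that ratio.

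Per length of transcript, Sesn1 had the highest mean of the sestrins in each group. CPM per kilobase of merged exons (GENCODE vM21, GRCm38) averaged 22.8 ± 11.3 for Sesn1, 8.80 ± 2.44 for Sesn2 and 1.43 ± 0.595 for Sesn3 in Myc lymphomas (SD, n = 8). In vector lymphomas these levels were 21.5 ± 3.42, 7.59 ± 1.97 and 4.60 ± 1.11 (SD, n = 8), and in normal spleen 33.7 ± 4.08, 5.02 ± 0.282 and 5.45 ± 1.32 (SD, n = 4). Sesn2 and Sesn3 differed by less than their spread in normal spleen. In Myc replicate 4 Sesn1 lay below Sesn2, at 10.6 against 11.8 CPM per kilobase, and in Myc replicate 7 they stood at 10.6 and 9.39. The merged exons of Sesn3 span 15.27 kb, against 3.98 kb for Sesn1 and 3.48 kb for Sesn2, and the annotation behind the counts may give other lengths.

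The known inducers of sestrins were counted from lists of their genes. These and the other pathway lists were chosen with earlier results of these data known. Among 19 tested genes of the Atf4 and amino acid response, 10 rose and 0 fell in Myc lymphomas against normal spleen (median log2 fold change 1.10, against 0.08 over all genes), and 10 rose and 1 fell in vector lymphomas against normal spleen (0.78, against -0.03). Of all genes 21.5% rose and 17.9% fell in the first comparison, and 7.46% rose and 3.36% fell in the second. Asns, which makes asparagine, averaged 105 ± 38.8 CPM in Myc lymphomas (SD, n = 8), 33.0 ± 8.10 CPM in vector lymphomas (SD, n = 8) and 2.86 ± 1.35 CPM in normal spleen (SD, n = 4). It rose 11.5-fold in vector lymphomas against normal spleen (edgeR adjusted p = 1.2e-05) and 36.7-fold in Myc lymphomas against normal spleen (edgeR adjusted p = 4.8e-08). The amino acid carrier genes Slc3a2 (2.95-fold, vector lymphomas against normal spleen, edgeR adjusted p = 4.3e-05) and Slc7a5 (5.80-fold, Myc lymphomas against normal spleen, edgeR adjusted p = 2.7e-06) rose too. In the earlier runs alone 10 of the 19 rose in Myc lymphomas against normal spleen, where 12.7% of all genes did, and 3 rose in vector lymphomas against normal spleen, where 0.621% did. Between Myc and vector lymphomas 7 of the 19 rose and 5 fell, where 26.6% of all genes rose and 21.9% fell. Psat1 (2.65-fold, edgeR adjusted p = 1.1e-05) and Asns (3.19-fold, edgeR adjusted p = 2.0e-05) stood at the front. Within the earlier runs 1 of the 19 was called, as lower, where 4.4% of all genes fell.

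Of 20 p53 targets, the genes that share an inducer with Sesn1 and Sesn2, 9 rose and 2 fell in Myc lymphomas against normal spleen (median 0.35) and 6 rose and 0 fell in vector lymphomas against normal spleen (median 0.60). Over all genes 21.5% rose and 17.9% fell in Myc lymphomas (median 0.08) and 7.46% rose and 3.36% fell in vector lymphomas (median -0.03) against normal spleen. With scaling to library totals the p53 counts in Myc lymphomas against normal spleen were 8 and 4. Cdkn1a, the cell-cycle inhibitor p21, averaged 42.1 ± 18.0 CPM in Myc lymphomas (SD, n = 8) and 5.83 ± 1.52 CPM in normal spleen (SD, n = 4), a rise of 7.22-fold (edgeR adjusted p = 1.7e-05), and Phlda3, an inhibitor of Akt, rose 5.65-fold (edgeR adjusted p = 1.7e-05) in the same comparison. Against vector lymphomas, 7 rose and 6 fell in Myc lymphomas (median 0.13 against 0.08 over all genes), where 26.6% and 21.9% of all genes did. There the death receptor Fas fell by 2.73 ± 0.29 on the log2 scale (edgeR adjusted p = 3.7e-07), and in vector lymphomas it was 3.90-fold above normal spleen (edgeR adjusted p = 0.0015), as was Phlda3 at 2.78-fold (edgeR adjusted p = 0.0047). Perp, a p53 target of the cell membrane, rose 12.0-fold in Myc against vector lymphomas (edgeR adjusted p = 3.9e-05) at a mean of 4.13 ± 5.13 CPM in Myc lymphomas (SD, n = 8). For the earlier runs alone, 8 of the 20 rose and 1 fell in Myc lymphomas against normal spleen, 1 rose and 0 fell in vector lymphomas against normal spleen, and 3 rose and 1 fell in Myc against vector lymphomas. The shares of all genes in the earlier runs were 12.7% up and 7.97% down, 0.621% up and 0.0432% down, and 2.97% up and 4.4% down in those 3 comparisons.

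FoxO factors and their targets, the genes that share an inducer with Sesn3 and Sesn1, fell in larger number than they rose in Myc lymphomas. Of 20 genes, 9 fell and 3 rose against vector lymphomas (median -0.44), where 21.9% of all genes fell, and 7 fell and 2 rose against normal spleen (median -0.71), where 17.9% of all genes fell. Foxo1 itself averaged 115 ± 40.9 CPM in Myc lymphomas and 253 ± 40.9 CPM in vector lymphomas (SD, n = 8 each), without overlap, and fell by 1.14 ± 0.19 on the log2 scale (edgeR adjusted p = 5.8e-05). Such separation, with Myc lymphomas lower, was seen in 6.38% of all genes. S1pr1, the receptor by which lymphocytes leave tissues, fell by 1.79 ± 0.30 in Myc lymphomas against normal spleen (edgeR adjusted p = 1.5e-04), and the cyclin gene Ccng2 by 1.28 ± 0.23 (edgeR adjusted p = 3.1e-04). Sod2, the mitochondrial superoxide dismutase, went against the list and rose 2.16-fold in Myc against vector lymphomas (edgeR adjusted p = 2.1e-04). In vector lymphomas against normal spleen 3 fell and 1 rose, where 3.36% of all genes fell and 7.46% rose. The riser was the growth factor receptor gene Igf1r, up 2.37-fold (edgeR adjusted p = 0.016). With later runs left out, edgeR called 0 of the 20 in Myc against vector lymphomas and 7 reached an unadjusted p under 0.05 (Foxo1 at -0.87 ± 0.32, edgeR adjusted p = 0.12), and 5 fell and 2 rose in Myc lymphomas against normal spleen. Of all genes 4.4% fell and 2.97% rose in the first comparison, and 7.97% fell and 12.7% rose in the second.

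Of 27 genes of GATOR, KICSTOR, the Rag GTPases and Ragulator, the partners through which sestrins act, 9 rose and 6 fell in Myc against vector lymphomas, where 26.6% of all genes rose and 21.9% fell, with a median of -0.03 against 0.08 over all genes. Depdc5, a subunit of GATOR1, fell by 1.04 ± 0.17 on the log2 scale (edgeR adjusted p = 5.4e-05), and folliculin (Flcn), which acts on the Rag GTPases, fell by 0.73 ± 0.15 (edgeR adjusted p = 6.4e-04). Between vector lymphomas and normal spleen 1 of the 27 was called, where 7.46% of all genes rose and 3.36% fell. It was the GATOR1 gene Nprl3, which rose 1.68-fold (edgeR adjusted p = 0.011), while Fnip1 had -0.64 ± 0.29 (edgeR adjusted p = 0.17). In Myc lymphomas against normal spleen 3 rose and 3 fell, where 21.5% of all genes rose and 17.9% fell. Without Myc replicate 5 the counts were 5 and 5, and with scaling to library totals 3 and 6. Called genes included Fnip2, a partner of folliculin, which rose 4.45-fold (edgeR adjusted p = 0.0037), and Depdc5, which fell by 0.88 ± 0.20 (edgeR adjusted p = 0.002). The earlier runs gave 1 call, lower, in Myc against vector lymphomas and 3 calls, all higher, in Myc lymphomas against normal spleen. Of all genes 4.4% fell in the first of these comparisons and 12.7% rose in the second, so these counts lie near the background.

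Of 19 tested genes of mTORC1, TSC and AMPK, 7 rose and 3 fell in Myc against vector lymphomas (median 0.11 against 0.08 over all genes), where 26.6% of all genes rose and 21.9% fell. Deptor, an inhibitor of mTOR, rose 5.02-fold (edgeR adjusted p = 2.3e-06), from a low level, at 11.4 ± 4.42 CPM in Myc lymphomas against 2.26 ± 1.11 CPM in vector lymphomas (SD, n = 8 each), and Prkag2, a subunit of AMPK, rose 1.92-fold (edgeR adjusted p = 2.7e-04). In vector lymphomas against normal spleen 0 rose and 2 fell, where 7.46% of all genes rose and 3.36% fell. Both were AMPK subunits (Prkab2, at 0.459 of its mean in normal spleen, edgeR adjusted p = 0.022, and Prkag2, at 0.604, edgeR adjusted p = 0.029). Without Myc replicate 5, 2 rose and 3 fell. In Myc lymphomas against normal spleen 4 of the 19 rose and 2 fell, near or below the shares of all genes (21.5% rose and 17.9% fell). Eif4ebp1, the translation repressor that mTORC1 phosphorylates, was up 3.38-fold (edgeR adjusted p = 0.0012) and Tbc1d7, a subunit of the TSC complex, up 3.42-fold (edgeR adjusted p = 0.0023) there. Among the earlier runs 1 rose in Myc against vector lymphomas and 3 rose in Myc lymphomas against normal spleen, where 2.97% and 12.7% of all genes did. Of 15 antioxidant genes of the Keap1 and Nfe2l2 system, with which sestrins cooperate, 8 rose in Myc lymphomas against either vector lymphomas (2 fell, median 0.73) or normal spleen (0 fell, median 0.60), the count against normal spleen being 5 with scaling to library totals. Of all genes 26.6% rose and 21.9% fell in the first comparison, and 21.5% rose and 17.9% fell in the second. Peroxiredoxin 3 (Prdx3) rose 2.27-fold against vector lymphomas (edgeR adjusted p = 7.4e-05), and the autophagy receptor Sqstm1, a sestrin partner, fell by 0.76 ± 0.11 there (edgeR adjusted p = 2.7e-05). Gclm, of glutathione synthesis, rose 4.36-fold in Myc lymphomas (edgeR adjusted p = 1.7e-05) and 2.14-fold in vector lymphomas (edgeR adjusted p = 0.012) against normal spleen. In vector lymphomas 4 of the 15 rose against normal spleen, where 7.46% of all genes did, Sqstm1 among them (1.76-fold, edgeR adjusted p = 0.0011). Peroxiredoxin 2 (Prdx2), an abundant protein of red blood cells, rose 11.7-fold in Myc lymphomas against normal spleen (edgeR adjusted p = 4.4e-05) and varied widely, at 752 ± 633 CPM in Myc lymphomas (SD, n = 8) against 64.1 ± 37.9 CPM in normal spleen (SD, n = 4). In the earlier runs alone 1 of the 15 rose in Myc against vector lymphomas and 4 in Myc lymphomas against normal spleen, where 2.97% and 12.7% of all genes did.

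For vector lymphomas against normal spleen, the earlier runs hold few samples. There edgeR called 0 of the 27 genes of amino acid sensing, 0 of 19 of mTORC1, TSC and AMPK, 0 of 20 of FoxO and 0 of 15 antioxidant genes. An unadjusted p under 0.05 was reached by 1, 0, 3 and 1 of them in that order, and DESeq2 was not run on these samples.

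Tnfrsf14, the gene of HVEM, was not called in any comparison. It ran from 7.40 to 40.8 CPM in Myc lymphomas with a median of 23.5 CPM, from 12.1 to 48.0 CPM in vector lymphomas with a median of 31.6 CPM, and stood at 29.4, 22.7, 18.5 and 18.3 CPM in normal spleen. The groups overlapped throughout. Its log2 fold change was -0.44 ± 0.29 in Myc over vector lymphomas (edgeR adjusted p = 0.21), 0.49 ± 0.36 in vector lymphomas over normal spleen (edgeR adjusted p = 0.43) and 0.05 ± 0.35 in Myc lymphomas over normal spleen (edgeR adjusted p = 0.92). Within vector lymphomas Tnfrsf14 stood at 12.1 and 21.3 CPM in the earlier runs and at 20.2 to 48.0 CPM in the later ones, which overlap. Run and title series cannot be told apart there. Normal replicate 1, the later normal sample, was the highest of its group. The part of the run in these levels was not tested. In the earlier runs alone the sign turned, to 0.47 ± 0.45 in Myc over vector lymphomas (edgeR adjusted p = 0.58) and -0.23 ± 0.51 in vector lymphomas over normal spleen (edgeR adjusted p = 0.96), so no direction is given for Tnfrsf14.

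Btla, the inhibitory receptor that HVEM engages, was lower in Myc lymphomas than in either other group. It ran from 38.2 to 231 CPM in Myc lymphomas with a median of 115 CPM, from 176 to 324 CPM in vector lymphomas with a median of 253 CPM, and stood at 414, 329, 427 and 361 CPM in normal spleen. Each lymphoma, of either kind, lay below all 4 normal samples, and 6 of 8 Myc lymphomas lay below all vector lymphomas, replicates 2 and 6 being the exceptions. Against normal spleen, 14.3% of all genes were lower without overlap in Myc lymphomas and 5.91% in vector lymphomas. Btla fell by 1.02 ± 0.25 on the log2 scale in Myc against vector lymphomas, which is 2.03-fold lower (edgeR adjusted p = 0.0025), and by 1.58 ± 0.29, or 2.99-fold, against normal spleen (edgeR adjusted p = 3.7e-04). Within the earlier runs the difference between lymphomas was of the same size without a call (-1.18 ± 0.42, edgeR adjusted p = 0.11, n = 8 and 2), and that against normal spleen was called (-1.51 ± 0.37, edgeR adjusted p = 0.012).

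Vector lymphomas against normal spleen stood at -0.56 ± 0.30 for Btla in the fit of 3 groups (edgeR adjusted p = 0.26) and at -0.55 ± 0.17 in the fit of these groups alone, where it passed (edgeR adjusted p = 0.041). The exact two-sided permutation test gave an unadjusted p of 0.0081. DESeq2 gave no call (-0.53 ± 0.31, DESeq2 adjusted p = 0.27), nor did the earlier runs, where the value was smaller (-0.33 ± 0.53, edgeR adjusted p = 0.95). The order of mean levels was thus Myc lymphomas (128 ± 60.7 CPM, SD, n = 8), vector lymphomas (260 ± 56.7 CPM, SD, n = 8) and normal spleen (383 ± 45.9 CPM, SD, n = 4). Neighbours in this order overlapped only between the lymphomas. The log2 ratio of Btla to Tnfrsf14 counts was 2.45 ± 0.63 in Myc lymphomas (SD, n = 8), 3.16 ± 0.86 in vector lymphomas (SD, n = 8) and 4.13 ± 0.35 in normal spleen (SD, n = 4). All 8 Myc lymphomas lay below all 4 normal samples in that ratio, at 1.78 to 3.50 against 3.82 to 4.53. The earlier vector lymphomas, replicates 7 and 8, stood at 4.50 and 3.87, within the normal range, and the 6 later ones at 2.25 to 4.00, so no order is given between vector lymphomas and normal spleen for this ratio.

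B cell markers were lower in Myc lymphomas too, except in replicate 5. The summed level of 9 B cell markers was 864 to 5450 CPM in Myc lymphomas, 5050 to 8990 CPM in vector lymphomas and 5860 to 7130 CPM in normal spleen; 8 of the 9 fell in Myc against vector lymphomas and 0 rose. Myc replicate 5 had the highest sum of the Myc lymphomas and the lowest Btla of all samples. Markers of follicular helper and activated T cells, which also carry BTLA, summed to 129 to 306 CPM in Myc lymphomas, 406 to 757 CPM in vector lymphomas and 375 to 518 CPM in normal spleen, with 6 of 10 lower and 0 higher in Myc against vector lymphomas. The 14 T cell markers summed to 1070 to 2380 CPM in Myc lymphomas, 998 to 1870 CPM in vector lymphomas and 1890 to 2160 CPM in normal spleen, with 4 of 14 higher and 2 lower in Myc against vector lymphomas. In that comparison 26.6% of all genes rose and 21.9% fell, so the T cell counts lie near the background. The T cell marker Cd3e had counts in every library. In bulk samples fewer cells of a type and less RNA per cell cannot be told apart, and the part of these cells in the Btla values was not tested.

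**Figure D3:**
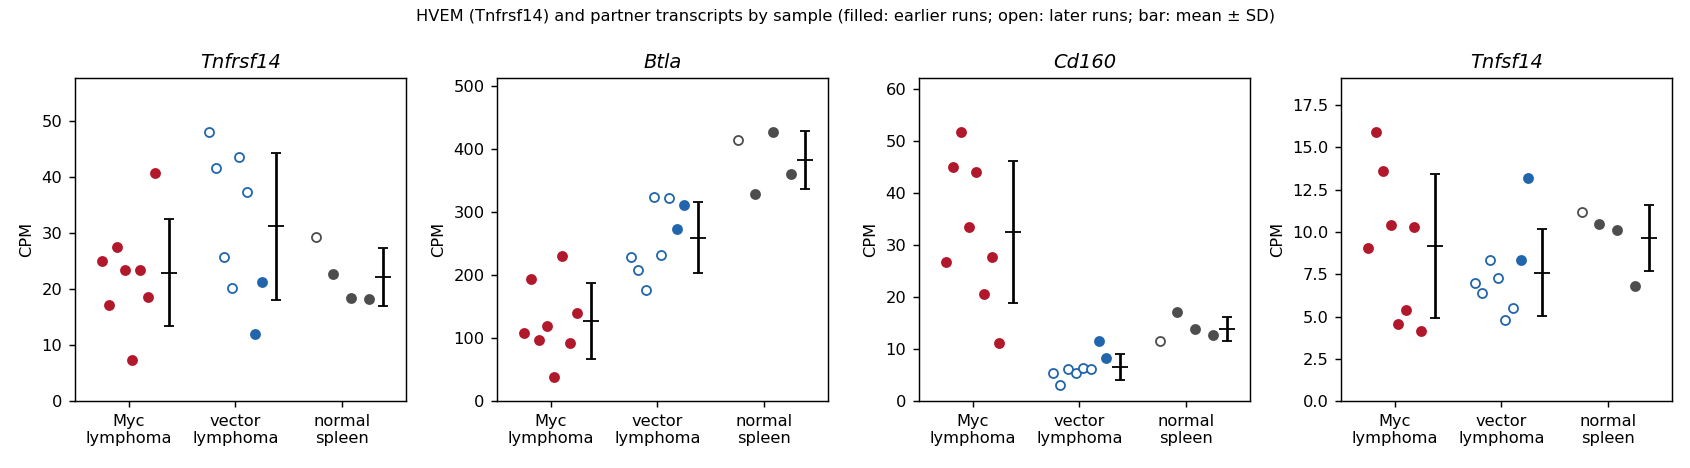
Transcripts of Tnfrsf14, Btla, Cd160 and Tnfsf14 in CPM (y axes) for each sample of Myc lymphomas, vector lymphomas and normal spleen (x axes), with filled points for earlier and open points for later sequencing runs and bars for mean ± SD. Btla steps up over the groups from left to right, Cd160 is lowest in vector lymphomas, and Tnfrsf14 and Tnfsf14 overlap between all groups.

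Cd160, the HVEM-binding receptor of NK cells and cytotoxic T cells, was the member that rose furthest. It ran from 11.2 to 51.7 CPM in Myc lymphomas with a median of 30.6 CPM, from 3.12 to 11.6 CPM in vector lymphomas with a median of 6.29 CPM, and stood at 11.6, 17.1, 14.0 and 12.8 CPM in normal spleen. Of the Myc lymphomas, 7 of 8 lay above all other samples, and Myc replicate 8, at 11.2 CPM, lay among the rest. Cd160 rose 4.91-fold in Myc against vector lymphomas (log2 fold change 2.30 ± 0.28, edgeR adjusted p = 2.0e-06) and 2.34-fold against normal spleen (1.23 ± 0.34, edgeR adjusted p = 0.0081). Both calls held within the earlier runs, at 1.72 ± 0.47 (edgeR adjusted p = 0.038) and 1.17 ± 0.38 (edgeR adjusted p = 0.041).

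In vector lymphomas Cd160 lay below every normal spleen in 8 of 8 samples, although vector replicate 7 and normal replicate 1 both stood at 11.6 CPM once rounded. Such separation, with vector lymphomas lower, was seen in 5.91% of all genes. Cd160 fell by 1.07 ± 0.32 on the log2 scale in vector lymphomas against normal spleen (edgeR adjusted p = 0.031). This call was fragile: it ended without any 1 of the 4 normal samples or of vector replicates 1 to 4, with adjusted p up to 0.11, and within the earlier runs the value was -0.55 ± 0.48 (edgeR adjusted p = 0.88). Vector replicates 7 and 8, the earlier ones, held 11.6 and 8.28 CPM, while the 6 later ones held 3.12 to 6.40 CPM. Exons of Cd160 share 68 bases with exons of Pdzk1 on the opposite strand in GENCODE vM21, and no source used here says whether counting used strand.

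NK and cytotoxic markers mostly moved in the direction of Cd160 in both comparisons with vector lymphomas, and only in part in Myc lymphomas against normal spleen. The summed level of 11 NK and cytotoxic markers was 351 to 1240 CPM in Myc lymphomas, 221 to 317 CPM in vector lymphomas and 393 to 544 CPM in normal spleen, and Myc replicate 3 had the highest sum as well as the highest Cd160. In Myc against vector lymphomas 9 of the 11 rose and 0 fell, in vector lymphomas against normal spleen 0 rose and 7 fell, and in Myc lymphomas against normal spleen 5 rose and 1 fell. The shares of all genes in those comparisons were 26.6% up and 21.9% down, 7.46% up and 3.36% down, and 21.5% up and 17.9% down. The NK receptor Ncr1 averaged 9.96 ± 4.93 CPM in Myc lymphomas (SD, n = 8), 2.46 ± 1.01 CPM in vector lymphomas (SD, n = 8) and 14.7 ± 5.46 CPM in normal spleen (SD, n = 4). Its mean in Myc lymphomas was thus below that in normal spleen, unlike that of Cd160. Markers of plasmacytoid dendritic cells, which carry B220, had a median sum of 518 CPM in Myc lymphomas, 175 CPM in vector lymphomas and 304 CPM in normal spleen, with 6 of 8 higher and 1 lower in Myc against vector lymphomas. The part of these cells in the Cd160 values was not tested.

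**Figure D4:**
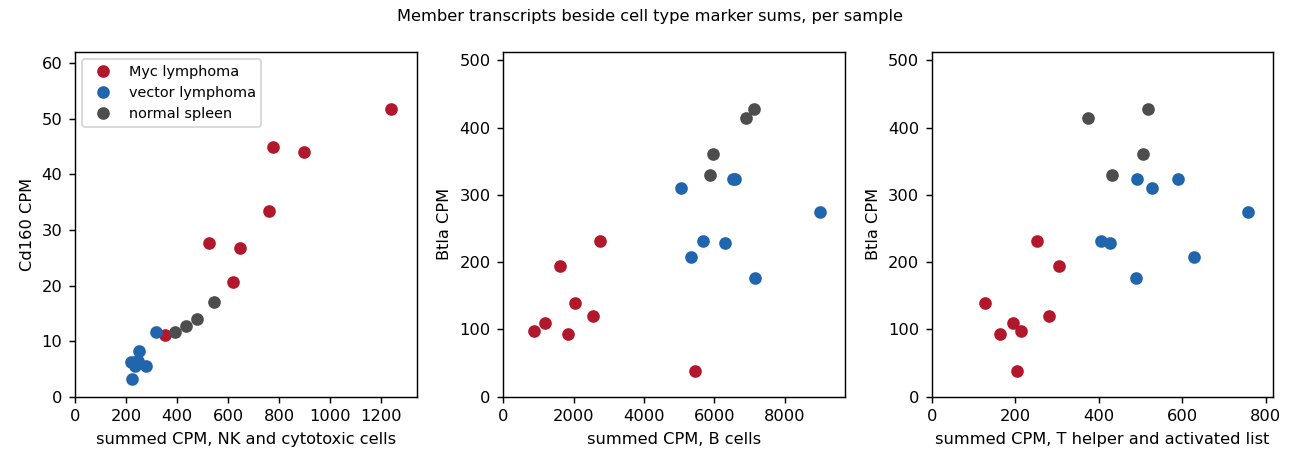
Cd160 or Btla in CPM (y axes) against the summed CPM of a marker list (x axes) for each sample, coloured by group (Myc lymphomas, vector lymphomas, normal spleen). Among Myc lymphomas replicate 3 has the highest NK and cytotoxic sum (1240 CPM) and Cd160 (51.7 CPM) and replicate 8 the lowest of both (351 and 11.2 CPM), while Myc replicate 5 has the lowest Btla (38.2 CPM) and the highest B cell sum among Myc lymphomas (5450 CPM).

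Tnfsf14, the gene of the ligand LIGHT, was low, and its groups overlapped. It ran from 4.17 to 15.9 CPM in Myc lymphomas with a median of 9.72 CPM, from 4.80 to 13.2 CPM in vector lymphomas with a median of 7.13 CPM, and stood at 11.2, 10.5, 10.1 and 6.79 CPM in normal spleen. Each library held at least 106 counts of it. The 95% interval of the log2 fold change was -0.26 to 0.80 in Myc over vector lymphomas (0.27 ± 0.27, edgeR adjusted p = 0.43), -0.99 to 0.30 in vector lymphomas over normal spleen (-0.34 ± 0.33, edgeR adjusted p = 0.56) and -0.72 to 0.58 in Myc lymphomas over normal spleen (-0.07 ± 0.33, edgeR adjusted p = 0.87). All 3 signs turned within the earlier runs. Per kilobase of merged exons the order within normal spleen was Btla at 113 ± 13.5, Tnfrsf14 at 15.4 ± 3.61, Cd160 at 5.26 ± 0.895 and Tnfsf14 at 5.24 ± 1.07 CPM (SD, n = 4), the last 2 differing by less than their spread. In Myc lymphomas the order was Btla at 37.7 ± 17.9, Tnfrsf14 at 16.0 ± 6.65, Cd160 at 12.3 ± 5.18 and Tnfsf14 at 4.98 ± 2.32 CPM per kilobase (SD, n = 8), where Tnfrsf14 and Cd160 differed by less than their spread. In vector lymphomas it was Btla at 76.5 ± 16.7, Tnfrsf14 at 21.7 ± 9.08, Tnfsf14 at 4.13 ± 1.41 and Cd160 at 2.51 ± 0.936 CPM per kilobase (SD, n = 8).

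The genes downstream of HVEM were lower in Myc lymphomas although Tnfrsf14 itself was not called. All 11 of the 11 listed genes of TRAF and alternative NF-kB signalling fell in Myc against vector lymphomas, with a median log2 fold change of -1.21 (0.08 over all genes), and all 11 fell against normal spleen, with a median of -0.98. Of all genes 21.9% and 17.9% fell in those comparisons. Because the list was chosen with earlier results of these data known, its counts are a description. Nfkb2, whose product p52 carries the alternative pathway, averaged 56.2 ± 14.1 CPM in Myc lymphomas and 211 ± 34.3 CPM in vector lymphomas (SD, n = 8 each) and fell by 1.91 ± 0.16 (edgeR adjusted p = 2.8e-08), and the adaptor gene Traf1 fell by 1.58 ± 0.15 (edgeR adjusted p = 7.8e-08). Against normal spleen Nfkb2 fell by 1.98 ± 0.18 (edgeR adjusted p = 3.7e-07), and Relb, the partner of p52, by 1.35 ± 0.19 (edgeR adjusted p = 2.9e-05). The earlier runs alone had 5 of the 11 lower against vector lymphomas, where 4.4% of all genes did, and 8 fell against normal spleen, where 7.97% did. For vector lymphomas against normal spleen 1 of the 11 rose, where 7.46% of all genes did. It was Traf1, which rose 1.57-fold (edgeR adjusted p = 0.021), while Traf5 had 0.54 ± 0.21 (edgeR adjusted p = 0.098) and 0 fell. These genes serve other receptors of B cells as well. B cell markers fell in Myc lymphomas beside them (8 of 9 against vector lymphomas), and their part in these counts was not tested.

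Of 7 tested genes of lymphotoxins, TNF and their receptors, the relatives of LIGHT and HVEM, 4 fell and 3 were not called in Myc lymphomas against vector lymphomas (median -0.83), where 21.9% of all genes fell. Against normal spleen 4 fell and 3 were not called (median -1.01), where 17.9% of all genes fell. B cell markers fell beside them, 8 of 9 against vector lymphomas and 7 of 9 against normal spleen, and their part in these counts was not tested. Tnf itself fell against vector lymphomas (-0.83 ± 0.31, edgeR adjusted p = 0.031) and had -0.35 ± 0.37 against normal spleen (edgeR adjusted p = 0.47). Lymphotoxin alpha (Lta), which also binds HVEM, averaged 7.15 ± 5.74 CPM in Myc lymphomas (SD, n = 8), 31.2 ± 10.9 CPM in vector lymphomas (SD, n = 8) and 29.9 ± 4.23 CPM in normal spleen (SD, n = 4). It fell by 2.13 ± 0.32 on the log2 scale against vector lymphomas (edgeR adjusted p = 2.6e-05) and by 2.07 ± 0.36 against normal spleen (edgeR adjusted p = 2.2e-04), without overlap in either. Such separation, with Myc lymphomas lower, was seen in 6.38% and 14.3% of all genes in those comparisons. Ltb, the membrane partner of Lta, fell by 1.36 ± 0.28 against normal spleen (edgeR adjusted p = 8.2e-04), and the TNF receptor Tnfrsf1b fell by 1.05 ± 0.19 against vector lymphomas (edgeR adjusted p = 1.6e-04). In the earlier runs 1 of the 7, Lta, fell against vector lymphomas (-2.38 ± 0.48, edgeR adjusted p = 0.0089) and 3 fell against normal spleen. Of all genes 4.4% and 7.97% fell in those comparisons. In vector lymphomas against normal spleen 0 of 7 were called by edgeR in the fit of 3 groups and 0 by DESeq2. The fit of these groups alone called 1, as lower, where 20.7% of all genes were called in either direction. In the fit of 3 groups 0 reached an unadjusted p under 0.05, the smallest edgeR adjusted p being 0.27 (Tnfrsf25, -0.74 ± 0.40), followed by Tnf (0.49 ± 0.38, edgeR adjusted p = 0.47).

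Genes of BTLA's effectors and of the B cell receptor pathway they restrain fell alongside Btla. Of 11 genes 10 fell and 0 rose in Myc against vector lymphomas (median -0.97), where 21.9% of all genes fell and 26.6% rose. Against normal spleen 7 fell and 0 rose (median -0.85), where 17.9% of all genes fell and 21.5% rose. The median over all genes was 0.08 in both comparisons. The adaptor gene Grb2 fell by 1.21 ± 0.13 (edgeR adjusted p = 5.8e-07) and the phospholipase gene Plcg2 by 1.37 ± 0.16 (edgeR adjusted p = 1.6e-06) against vector lymphomas. Ptpn6, the phosphatase SHP-1 that BTLA recruits, averaged 388 ± 109 CPM in Myc lymphomas (SD, n = 8) and 934 ± 62.1 CPM in normal spleen (SD, n = 4), and fell by 1.27 ± 0.20 (edgeR adjusted p = 6.8e-05). Of the 11, 5 fell against vector lymphomas and 7 against normal spleen when later runs were left out, where 4.4% and 7.97% of all genes did. In vector lymphomas against normal spleen edgeR called 0 of 11, with 3 at an unadjusted p under 0.05, where 7.46% of all genes rose and 3.36% fell. DESeq2 called 1 (15.4% of all genes) and the fit of these groups alone 2 (20.7% of all genes), each higher. The smallest p there belonged to Grb2 (0.41 ± 0.16, edgeR adjusted p = 0.11) and Plcg2 (0.42 ± 0.20, edgeR adjusted p = 0.19). This list shares genes with the B cell markers, of which 8 of 9 fell in Myc against vector lymphomas.

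Other inhibitory receptors and ligands gave a further setting for Btla. Of 18 genes 13 fell and 1 rose in Myc against vector lymphomas (median -1.05, against 0.08 over all genes). Of all genes 21.9% fell and 26.6% rose there. Within the earlier runs 9 of the 18 fell and 0 rose, where 4.4% of all genes fell and 2.97% rose. Cd22, an inhibitory receptor of B cells, averaged 343 ± 119 CPM in Myc lymphomas and 1670 ± 245 CPM in vector lymphomas (SD, n = 8 each), down by 2.29 ± 0.21 (edgeR adjusted p = 7.0e-08), and the PD-1 ligand gene Pdcd1lg2 fell by 1.96 ± 0.18 (edgeR adjusted p = 7.8e-08). Against normal spleen 11 fell and 4 rose in Myc lymphomas, where 17.9% of all genes fell and 21.5% rose. Cd200 was down by 1.55 ± 0.18 (edgeR adjusted p = 4.9e-06) and Siglecg down by 1.91 ± 0.24 (edgeR adjusted p = 9.9e-06) there. In vector lymphomas against normal spleen 4 rose and 1 fell (4 and 3 with scaling to library totals), where 7.46% of all genes rose and 3.36% fell. The risers were led by Lag3 (4.16-fold, edgeR adjusted p = 1.3e-04) and Pdcd1, the gene of PD-1 (4.97-fold, edgeR adjusted p = 0.0023), both checkpoint receptors of T cells. Btla stood at -0.56 ± 0.30 there. The list shares Cd22 with the B cell markers and Pdcd1 and Ctla4 with those of T helper cells, of which 3 of 10 rose in the last comparison. With the earlier runs alone 1 of the 18 rose in vector lymphomas against normal spleen, where 0.621% of all genes did.

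**Figure D5:**
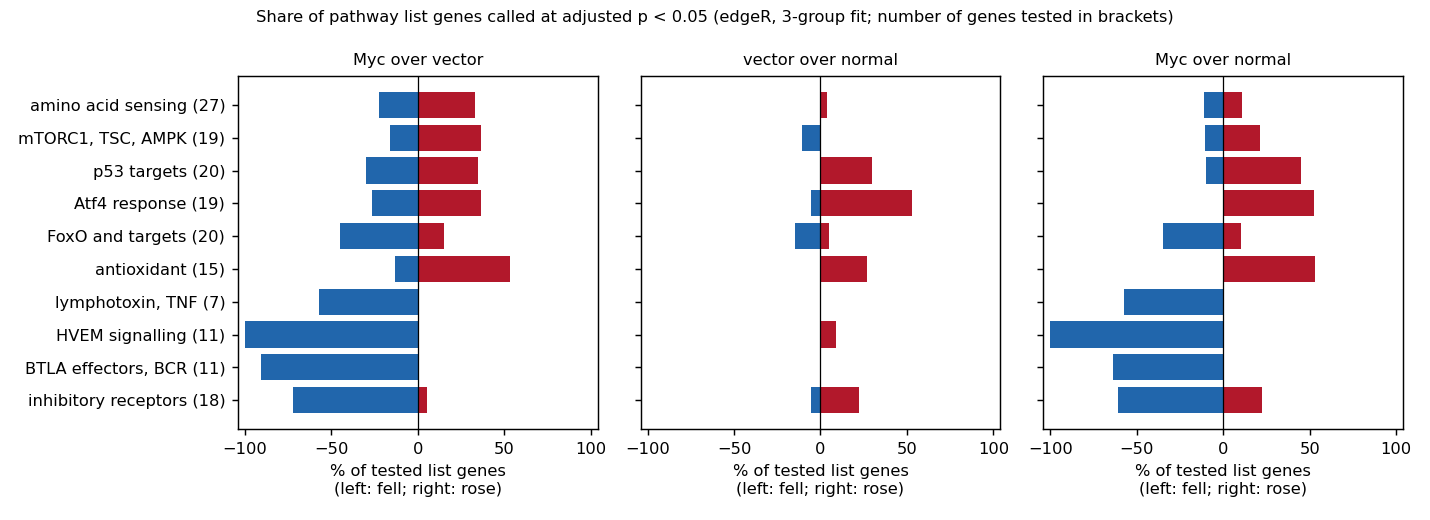
Share of each pathway list, in percent of its tested genes, that rose (right) or fell (left) at an adjusted p under 0.05 (x axes), for 10 lists (y axis, number tested in brackets) and 3 comparisons. HVEM signalling reaches 11 of 11 lower in both comparisons of Myc lymphomas, and the Atf4 list rises in both comparisons with normal spleen (10 of 19 each).

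The genes most like each member were ranked by Spearman's rho of deviations from the group means of log2 CPM over 20 samples, among 10780 genes that average at least 5 CPM. Genes measured in the same sample share its library and run, so the values describe likeness only. Sesn3 was closest to Map4 (0.95), Wipf1 (0.92) and Igf2r (0.92), and Tnfrsf14 to Cul4a (0.96), Trak2 (0.93) and Adcy6 (0.92). Sesn1 was closest to Dcaf17 (0.87), Pot1b (0.83) and Zfp53 (0.83), and Sesn2 to Pcyox1l (0.83), Scamp1 (0.83) and Man1c1 (0.76). Btla was closest to Far1 (0.84), Tor1aip1 (0.84) and Vps37a (0.83). Cd160 was closest to Hsd11b1 (0.87), Hcst (0.85), which encodes the NK adaptor DAP10, and Ccl5 (0.84), a chemokine of cytotoxic lymphocytes, and Tnfsf14 to Cd101 (0.87), Galm (0.85) and Itgb2 (0.81). Between members the values ran from -0.53 for Cd160 with Tnfrsf14 to 0.56 for Btla with Sesn1, and among the sestrins from -0.20 to 0.23.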

How the data were processed

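Messenger RNA of B220+ cells was sequenced on the Ion Proton after poly-A selection, per the labels' protocols. The deposited values are raw counts per Ensembl gene, and the submitters' processing notes list (without roles) HTSeq, Picard 1.119, BWA 0.7.5a and, as builds, NCBIM37 and mm9. Reads assigned to no gene (43.0 to 62.9% of reads listed, in 5 lines) were left out. Names came from GENCODE vM21, in which 32897 of 37620 identifiers had a symbol. Genes were filtered with filterByExpr, TMM-scaled, and fitted in edgeR 4.0.16 (quasi-likelihood F test, two-sided, Benjamini-Hochberg over 17824 genes) in 1 fit of 20 samples. SE is the log2 fold change over the root of F, and 95% intervals are normal. The fit was tested on simulated data. CPM use TMM-scaled libraries, log2 CPM a prior count of 2, and ratios add 0.5 to counts. Replicates were numbered in accession order. Alternatives covered scaling, filtering, DESeq2 1.42.0, samples, runs, left-out samples and exact permutation. Genes named are the members, Myc, Bcl2, the 2 of each list with the smallest p per comparison, defining markers and the 3 most like each member. Members and lists were chosen with earlier results of these data known. The recount of lists under alternatives was added after seeing the data. A few genes that this rule names are not reported here.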

Additional observations from a re-analysis of the deposited data

Results flagged for a closer look

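Of 21 groups of values examined (7 members in 3 groups of samples), 2 held a sample far from the others by Dixon's test, while chance alone flags about 1 group in 20. Sesn1 in vector replicate 5 stood at 119 CPM, while the other 7 vector lymphomas held 77.5 to 85.1 CPM. Tnfsf14 in vector replicate 8 stood at 13.2 CPM, while the other 7 held 4.80 to 8.38 CPM.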

How the results depend on the processing

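Values are log2 fold changes with adjusted p, and causes were not tested. Scaling by edgeR's RLE or upper quartile and testing without a filter changed no member's call. Scaling to library totals moved the median of all genes to -0.18 for vector over normal (-0.03 with TMM) and -0.11 for Myc over normal (0.08 with TMM), ended the Sesn2 call in Myc over normal (0.65) and turned Tnfrsf14 there (-0.10). The upper quartile moved the Myc over vector median to 0.15. The earlier runs alone, with fewer samples, gave 1363 called genes for Myc over vector, 123 for vector over normal and 3820 for Myc over normal, against 8654, 1928 and 7025 with all samples. They ended the calls of Sesn3 (-1.07) and Btla (-1.18) in Myc over vector, Cd160 (-0.55) in vector over normal and Sesn2 (0.83) in Myc over normal, and turned Tnfrsf14 (0.47) and Tnfsf14 (-0.23) in Myc over vector, Tnfrsf14 (-0.23) and Tnfsf14 (0.26) in vector over normal and Tnfsf14 (0.03) in Myc over normal. With the run as a term, 3382 and 1225 genes were called for Myc over vector and vector over normal, Tnfrsf14 turned in both (0.32 and -0.03), and Cd160 in vector over normal ended (-0.78). Fitting only vector lymphomas and normal spleen gave 3503 called genes and added Sesn1 (-0.64), Sesn2 (0.61) and Btla (-0.55). DESeq2 added Sesn2 there (0.63). The exact permutation test, unadjusted, added Sesn1 (-0.65), Sesn2 (0.56) and Btla (-0.58) there, and gave Sesn1 in Myc over vector as -0.07 and Tnfrsf14 in Myc over normal as -0.06.

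Leaving out 1 sample at a time gave 1089 to 2979 called genes for vector over normal, fewest without normal replicate 3 and most without Myc replicate 5. Members whose call or sign changed ranged from -0.15 to 0.19 (Sesn1, Myc over vector, turned without Myc replicate 6), -0.77 to -0.45 (Sesn1, Myc over normal, called without Myc replicate 6), 0.52 to 0.66 (Sesn2, vector over normal, called without Myc replicate 5), -1.23 to -0.92 (Cd160, vector over normal), -0.12 to 0.25 (Tnfrsf14, Myc over normal) and -0.23 to 0.05 (Tnfsf14, Myc over normal). With the run as a term, the counts up and down in Myc over vector were 2 and 2 of 27 for amino acid sensing, 2 and 0 of 19 for mTORC1, TSC and AMPK, 2 and 4 of 20 for FoxO and 5 and 2 of 15 for antioxidant genes. Without Myc replicate 5 the HVEM signalling list still had 11 of 11 lower in Myc over vector. No paired analysis was possible because the replicate numbers follow accession order and name no shared animal, litter or day.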

Other observations

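Markers of myeloid cells also differed in the B220-enriched samples. The neutrophil gene S100a8 averaged 1530 ± 1290 CPM in Myc lymphomas (SD, n = 8), 206 ± 376 CPM in vector lymphomas (SD, n = 8) and 81.3 ± 76.8 CPM in normal spleen (SD, n = 4), and 6 of 10 neutrophil markers rose and 0 fell in Myc against vector lymphomas by edgeR's quasi-likelihood test. The macrophage receptor gene Csf1r averaged 79.1 ± 19.8 CPM in Myc lymphomas (SD, n = 8), 153 ± 45.9 CPM in vector lymphomas (SD, n = 8) and 188 ± 50.9 CPM in normal spleen (SD, n = 4), with 1 of 10 markers of its list higher and 1 lower in Myc against vector lymphomas. Itgax, of conventional dendritic cells, averaged 39.4 ± 18.0 CPM in Myc lymphomas (SD, n = 8), 67.7 ± 26.6 CPM in vector lymphomas (SD, n = 8) and 95.9 ± 11.4 CPM in normal spleen (SD, n = 4), and 5 of 8 of its list fell and 1 rose in Myc against vector lymphomas. Siglech, of plasmacytoid dendritic cells, averaged 122 ± 82.8 CPM in Myc lymphomas (SD, n = 8), 16.7 ± 10.3 CPM in vector lymphomas (SD, n = 8) and 55.1 ± 13.2 CPM in normal spleen (SD, n = 4). Cd3e, of T cells, averaged 55.7 ± 32.9 CPM in Myc lymphomas (SD, n = 8), 75.7 ± 18.9 CPM in vector lymphomas (SD, n = 8) and 86.2 ± 22.0 CPM in normal spleen (SD, n = 4), while of 14 T cell markers 4 rose and 2 fell in Myc against vector lymphomas (median log2 fold change -0.01). Beside these marker counts, 26.6% of all genes rose and 21.9% fell in Myc against vector lymphomas.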
